A study of Mus musculus with 6 samples.

Results

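Expression of 10 genes of the melanocyte lineage was measured in stem cells of the hair follicle, sorted from the skin of mice. They were Sox10, Mitf, Kit, Ednrb, Tyr, Tyrp1, Dct, Pmel, Mlana and Oca2, chosen by name as known genes of pigment cells. A gene was taken from the features (transcript clusters of the array) that the platform annotation pairs with exactly 1 symbol, and each of the 10 genes had 1 such feature, so 10 of 22180 measured genes are described. Each sample filled 1 Affymetrix array (GeneChip Mouse Gene 2.0 ST), and there were 3 samples of wild-type (WT) and 3 of K14-sPLA2-IIA transgenic (TG) mice. All samples were CD34+ and α6-integrin+ cells of mouse skin at postnatal day 49, an age that falls in the resting phase of the hair cycle in normal mice. The transgene places secreted phospholipase A2 group IIA under a keratin 14 promoter, which is active in keratinocytes of the basal layer and outer root sheath and is not a melanocyte promoter. The labels give no strain, coat colour or sex, and nothing on whether each sample was a mouse of its own.

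Melanocytes make melanin in melanosomes and pass it to keratinocytes. In the resting follicle their stem cells lie in the bulge and the hair germ beside the epithelial stem cells that this sort selects, and they are kept by signals from those neighbours. The transcription factor MITF acts on the promoters of pigment genes, SOX10 acts on Mitf, and the receptors KIT and EDNRB receive the growth signals stem cell factor and endothelin 3. The gate names 2 surface proteins of the epithelial stem cells and no melanocyte protein. Whether the RNA measured for these genes came from melanocytes in the sorted fraction or from the gated cells themselves was not tested.

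The promoters of the tyrosinase family and of Mitf are shown because these genes carry the patterns described below. The sequences are RefSeq windows of assembly GRCm38.p6, 250 bases before to 50 bases after a gene's start, printed 5′ to 3′ on the gene's strand. A window was found for 7 of the 10 genes, and none for Pmel, Mlana and Sox10. Capitals mark TCATGTG on either strand (CACATGA when read from the other strand), the M-box to which MITF is known to bind, in the windows of Tyr (chr7:87493463-87493762, minus strand), Tyrp1 (chr4:80833963-80834262, plus strand) and Dct (chr14:118052197-118052496, minus strand). In the most downstream of the 3 Mitf windows (chr6:97991533-97991832, plus strand) capitals mark TGACGTCA, the palindromic element of cyclic AMP response factors.
Tyr: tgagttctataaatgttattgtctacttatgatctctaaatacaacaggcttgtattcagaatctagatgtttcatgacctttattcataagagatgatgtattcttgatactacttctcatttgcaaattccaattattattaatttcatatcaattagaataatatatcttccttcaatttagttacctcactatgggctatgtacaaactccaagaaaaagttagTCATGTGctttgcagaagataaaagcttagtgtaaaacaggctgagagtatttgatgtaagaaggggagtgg
Tyrp1: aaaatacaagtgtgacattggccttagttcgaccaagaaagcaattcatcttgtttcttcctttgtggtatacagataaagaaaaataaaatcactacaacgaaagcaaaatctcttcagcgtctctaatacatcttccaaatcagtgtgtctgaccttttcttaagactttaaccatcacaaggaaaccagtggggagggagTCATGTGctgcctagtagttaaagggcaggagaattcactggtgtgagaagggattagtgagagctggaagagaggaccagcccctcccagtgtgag
Dct: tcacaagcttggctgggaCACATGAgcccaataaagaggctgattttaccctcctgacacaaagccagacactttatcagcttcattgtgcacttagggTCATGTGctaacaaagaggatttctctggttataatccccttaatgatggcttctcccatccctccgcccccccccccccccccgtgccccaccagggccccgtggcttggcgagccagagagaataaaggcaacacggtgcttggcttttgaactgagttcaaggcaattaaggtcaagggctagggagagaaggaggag
Mitf: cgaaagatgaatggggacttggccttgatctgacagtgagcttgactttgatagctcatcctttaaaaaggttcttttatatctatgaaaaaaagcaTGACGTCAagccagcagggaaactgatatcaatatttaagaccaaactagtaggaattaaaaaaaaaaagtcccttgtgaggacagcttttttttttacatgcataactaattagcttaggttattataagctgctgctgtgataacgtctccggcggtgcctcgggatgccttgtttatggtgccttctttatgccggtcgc

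The M-box began 22 bases before the start in Tyr and 47 bases before it in Tyrp1. Dct held it at 151 bases before the start and, on the other strand, at 232 bases. Of the 10 windows of the 7 genes that have one (Mitf has 3 and Kit 2 that overlap), 3 held TCATGTG, against 3.77% of all 32851 windows. The shorter CATGTG, which every TCATGTG contains, was in 4 of the 10 windows, the fourth being that of Oca2, and in 14.2% of all windows. CACGTG was in 0 of the 10 and in 7.15% of all windows. TGACGTCA was in 1 of the 10 and in 1.79% of all windows. A match describes the letters only and is no measurement of binding.

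Values are the authors' log2 expression values, on which a difference of 1 is a doubling if the base is 2. The median of all features was between 5.90 and 5.99 on the 6 arrays. The transgene's gene, Pla2g2a, lay between 5.75 and 6.77 on the WT arrays and between 12.39 and 12.61 on the TG arrays. Krt15, a bulge marker that is not in the gate, varied by 0.29 over the 6 arrays. Of the gate genes, Itga6 varied by 0.48. Cd34 varied by 3.42, from 9.78 and 9.89 to 13.07 on array 3 in WT, and from 9.65 to 12.42 on array 3 in TG with 11.57 on array 1, so it was highest on the array numbered 3 of each genotype, and TG array 1 lay nearer to TG array 3 than to TG array 2. Results below are also given without WT array 3, without both arrays numbered 3, and without each other array in turn.

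None of the 10 melanocyte lineage genes was called different between TG and WT, and the genotypes overlapped in each of them. In limma, with Benjamini-Hochberg adjustment over all genes, 0 of 10 passed an adjusted p of 0.05, each with an adjusted p of 0.99996, where 1 of 22180 genes, Pla2g2a, passed (0.00451%). At an unadjusted p under 0.05 there were also 0 of 10, where 2.77% of all genes lay under it. In 0 of the 10 did the TG arrays lie wholly above or below the WT arrays, where the arrays did not overlap for 7.2% of all genes. The difference, TG minus WT on the log2 scale, was above 0 in 4 genes and below 0 in 6, from -0.29 for Pmel to 0.17 for Kit, with a median of -0.090 against -0.007 over all genes. In bulk RNA, fewer melanocytes and less RNA per melanocyte cannot be told apart.

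**Figure D1:**
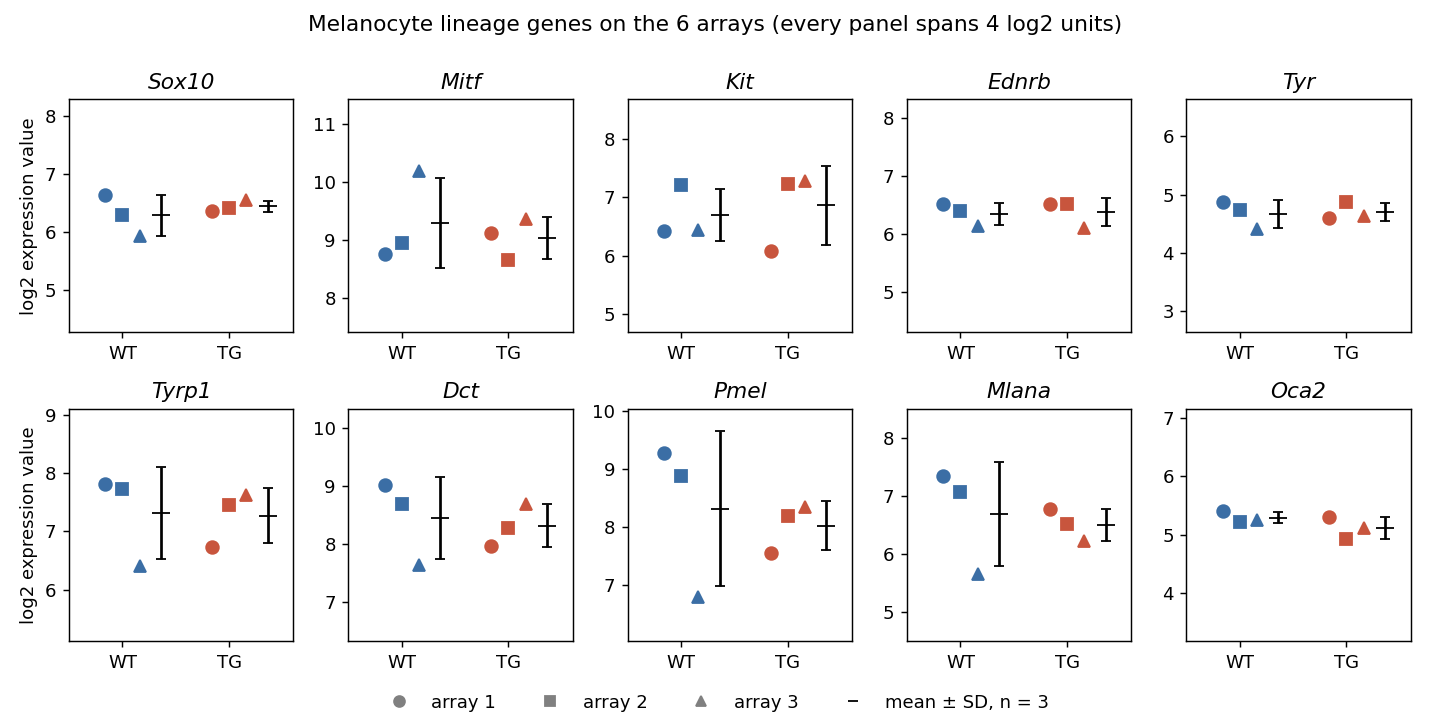
Log2 expression value of each of the 10 genes (vertical axis, every panel spanning the same number of log2 units) on the 3 WT arrays (blue) and the 3 TG arrays (red). Marker shape gives the array number, and the black bar is the mean ± SD of 3 arrays. The genotypes overlap in every panel, and WT array 3 (blue triangle) is the lowest of all for Tyr, Tyrp1, Dct, Pmel, Mlana and Sox10 and the highest for Mitf.

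Of the enzymes of melanin synthesis, Tyr encodes tyrosinase, which catalyses the initial steps of melanin synthesis from tyrosine. Listed here and below in the order of array numbers 1, 2 and 3, it read 4.87, 4.73 and 4.40 in WT and 4.59, 4.87 and 4.63 in TG. The arrays spanned 0.47, and the genotypes differed by 0.032 ± 0.17 (SE), with a 95% interval from -0.37 to 0.43. No detection value was used, so this feature's values may include little signal above background, and a low value can understate a difference.

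Tyrp1 encodes tyrosinase-related protein 1, which acts late in the synthesis of brown-black eumelanin. It read 7.82, 7.73 and 6.40 in WT and 6.73, 7.45 and 7.63 in TG. WT array 3 and TG array 1 were low and the other 4 arrays lay close together, so each genotype held 1 low array. The difference was -0.045 ± 0.43 (SE, 95% interval -1.07 to 0.98).

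Dct encodes dopachrome tautomerase, which is made from the melanoblast stage on and marks melanocyte stem cells. It read 9.01, 8.69 and 7.65 in WT and 7.97, 8.28 and 8.70 in TG. As for Tyrp1, the lowest arrays were WT array 3 and TG array 1. The difference was -0.14 ± 0.37 (SE, 95% interval -1.02 to 0.75).

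Among the melanosome proteins, Pmel varied most. Pmel encodes the protein whose fibrils form the scaffold of the melanosome. It read 9.28, 8.89 and 6.80 in WT and 7.55, 8.19 and 8.35 in TG. The arrays spanned 2.48, at percentile 98.4 of the spans of all genes, and all 3 TG arrays lay inside the range of the WT arrays. WT array 3 was 4.89-fold below the mean of the other WT arrays, while TG array 3 was 0.48 above the mean of the other TG arrays on the log2 scale. The difference between genotypes was -0.29 ± 0.63 (SE, 95% interval -1.81 to 1.22), so 3 arrays a genotype did not resolve a difference inside that interval.

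Mlana encodes a small membrane protein of early melanosomes that takes part in the maturation of PMEL. It read 7.34, 7.06 and 5.66 in WT and 6.77, 6.51 and 6.23 in TG. The 3 TG arrays again lay inside the WT range. The difference was -0.18 ± 0.43 (SE, 95% interval -1.21 to 0.85). Oca2 encodes a melanosomal membrane protein that affects melanosomal pH. It read 5.41, 5.22 and 5.25 in WT and 5.30, 4.92 and 5.11 in TG, a narrow span of 0.49 with a difference of -0.18 ± 0.15 (SE, 95% interval -0.53 to 0.16). All of these values lay below the median of all features, so for Oca2 too they may include little signal above background.

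The transcription factor genes parted on WT arrays 1 and 3 and on TG array 2. On TG array 2 the deviation from the mean over the 6 arrays was 0.043 for Sox10 and -0.520 for Mitf. On TG array 3 both were at 0.183 above their means. Sox10, a neural crest factor gene shared with Schwann cells, read 6.63, 6.30 and 5.93 in WT and 6.37, 6.41 and 6.55 in TG, with a difference of 0.15 ± 0.20 (SE, 95% interval -0.32 to 0.62). Its lowest array was WT array 3, as for the pigment genes. Mitf read 8.76, 8.95 and 10.19 in WT and 9.12, 8.65 and 9.36 in TG. Its highest array was WT array 3, where Tyr, Tyrp1, Dct, Pmel and Mlana were lowest, and Mitf there was 1.34 above the mean of the other WT arrays. The difference between genotypes was -0.26 ± 0.40 (SE, 95% interval -1.21 to 0.69). Mitf is also transcribed outside pigment cells, from several promoters, and the feature's value does not say which of the 3 RefSeq starts was used.

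Over the 6 arrays, neither receptor gene had its lowest or its highest value on WT array 3. Kit, the receptor gene for stem cell factor, is also a mast cell gene. It read 6.43, 7.21 and 6.44 in WT and 6.08, 7.23 and 7.29 in TG. WT arrays 1 and 3 and TG array 1 were low and the other 3 arrays lay close together, so the arrays parted within genotypes. The difference was 0.17 ± 0.38 (SE, 95% interval -0.73 to 1.08). Ednrb, the endothelin receptor type B gene, is also expressed by endothelium. It read 6.51, 6.39 and 6.13 in WT and 6.52, 6.51 and 6.10 in TG, lowest on both arrays numbered 3, with a difference of 0.032 ± 0.18 (SE, 95% interval -0.39 to 0.45).

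**Figure D2:**
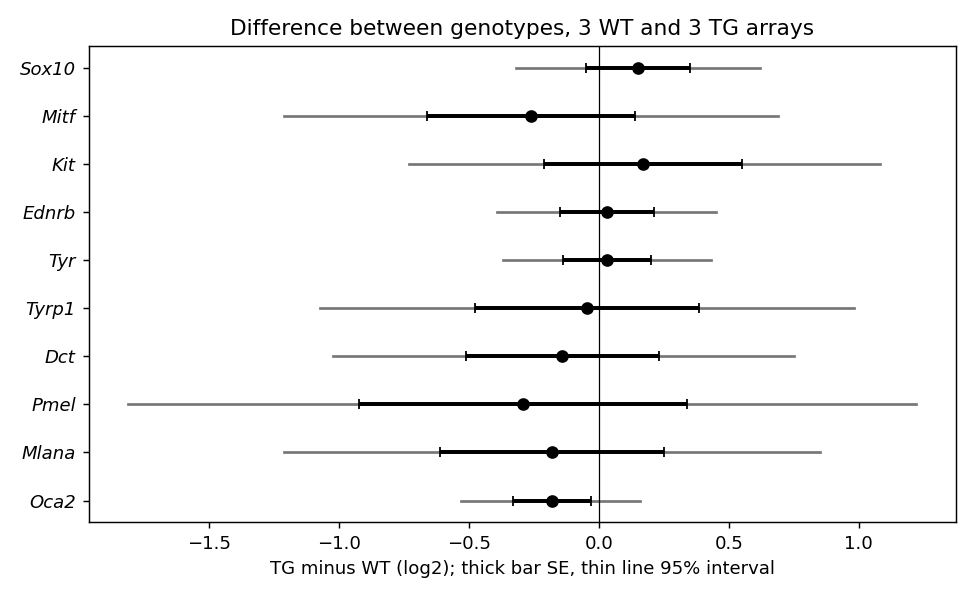
TG minus WT difference of each gene (horizontal axis, log2) from limma on 3 WT and 3 TG arrays. Points are the estimates, thick bars the SE and thin lines the 95% interval; every interval includes 0, and that of Pmel is the widest, from -1.81 to 1.22.

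Within this set, the 5 pigment genes used for a mean profile had the same lowest array. They were chosen with earlier results of these data known, so the shared array is a description only. Oca2, a melanosomal gene left out of the 5, was lowest on TG array 2 and stood 0.049 above its mean on WT array 3. Tyr, Tyrp1, Dct, Pmel and Mlana were each lowest on WT array 3 and highest on WT array 1, though for Tyr TG array 2 read 4.87 as well, and Sox10 had the same lowest and highest arrays. On the scale of deviations from each gene's own mean over the 6 arrays, the mean of these 5 genes was 0.64, 0.39 and -0.84 in WT and -0.30, 0.03 and 0.08 in TG. Over all genes, 25.9% had their lowest value on WT array 3 and 19.8% their highest on WT array 1. Of the 10 genes, 6 had the lowest value on WT array 3 and 7 the highest on WT array 1, the latter including Sox10 and Oca2.

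Likeness to the mean of the 5 genes was measured as the root mean square difference between profiles centred on their means over the 6 arrays. It was 0.134 for Dct, 0.164 for Tyrp1, 0.28 for Mlana and 0.347 for both Tyr and Pmel, which are part of that mean. A gene with no variation over the arrays would stand at 0.479. Of the other genes, Sox10 was nearest at 0.32 and Ednrb followed at 0.428, while Oca2 at 0.484 and Kit at 0.539 were no nearer than a flat gene. Mitf was farthest at 0.943, beyond the median of 0.499 over the genes outside the set. Tyr shared the lowest array with the others but not the size of the swing, which was 0.47 from lowest to highest against 2.48 for Pmel.

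**Figure D3:**
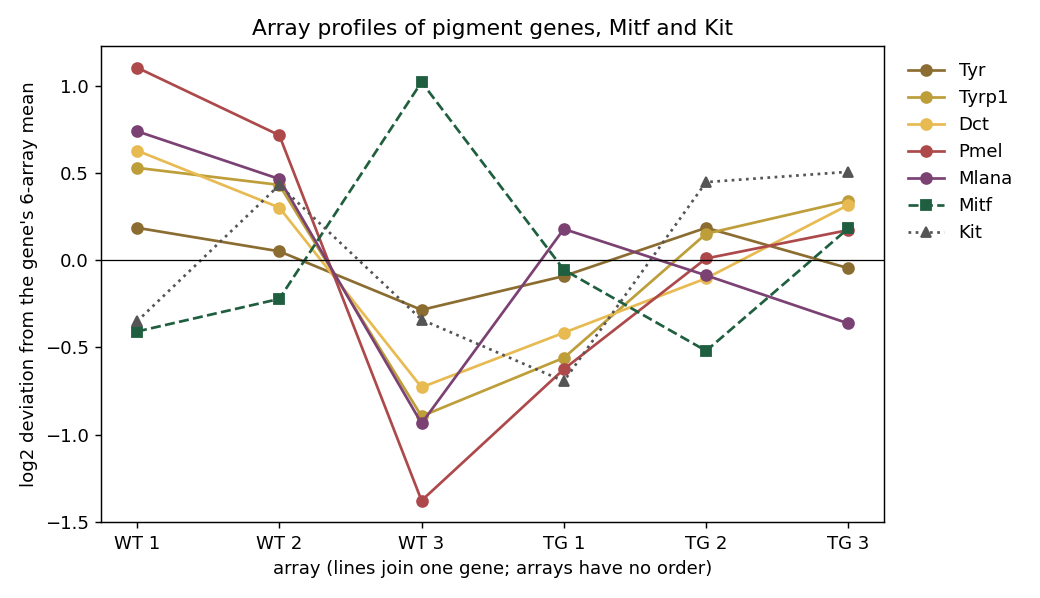
Deviation of each gene from its own mean over the 6 arrays (vertical axis, log2) for Tyr, Tyrp1, Dct, Pmel and Mlana (solid lines), Mitf (dashed) and Kit (dotted) on the 6 arrays (horizontal axis). The 5 solid lines are lowest on WT array 3, where Mitf is highest at 1.02 above its mean.

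The genes outside the set with the nearest profiles held none of the other pigment genes listed here. The 8 nearest of all genes, leaving out predicted genes and clone names, were Slc25a48, Zbtb14, Aacs, Pgm5, Trim43c, Apbb1ip, Pla2g2c and Ccna1, at root mean square differences from 0.109 to 0.19. Slc25a48, a gene of the mitochondrial carrier family, was nearest, with 10.20, 10.05 and 8.79 in WT and 9.40, 9.75 and 9.48 in TG. Aacs encodes acetoacetyl-CoA synthetase, an enzyme of ketone body use in lipid synthesis. With 6 arrays many of the 22180 genes can come close to a given profile, and the ranks moved with the arrays used: Slc25a48 ranked 18 without WT array 3.

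The genotype difference in the pigment genes depended on WT array 3. Without it, the differences were -1.06 ± 0.28 (SE) for Pmel, -0.69 ± 0.20 for Mlana, -0.53 ± 0.25 for Dct and -0.50 ± 0.28 for Tyrp1. The 3 TG arrays then lay below both remaining WT arrays for Tyrp1, Pmel and Mlana, or 3 of 10 genes, against 13.4% of all genes. None passed in limma (adjusted p = 0.881 for each of the 4). Of the 10 genes, 2 had an unadjusted p under 0.05, both lower in TG, against 2.17% of all genes on that side. The 4 genes were lowest of all on WT array 3, so leaving it out had to raise their WT mean and lower their difference. The shares over all genes are therefore not a like background. Mitf moved the other way, from -0.26 to 0.19 ± 0.23.

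Without both arrays numbered 3 the picture was similar, with 2 arrays of each genotype. Pmel differed by -1.22 ± 0.26 (SE), Dct by -0.73 ± 0.18, Tyrp1 by -0.68 ± 0.25 and Mlana by -0.56 ± 0.16. In these 4 genes both TG arrays lay below both WT arrays, against 20.6% of all genes, and the same 4 had an unadjusted p under 0.05, against 2.6% of all genes on that side. The adjusted p was 0.783 for each in limma. Leaving out WT array 3 had to raise the WT mean of these 4 genes here as well, so the shares over all genes are again not a like background. Tyr, the other enzyme of the family, stood at -0.071 ± 0.15. Without WT array 1 the 4 genes turned to between 0.14 and 0.21 above 0, and without TG array 1 Tyrp1 (0.22) and Dct (0.039) lay above 0, so the sign of their difference changed with the array left out. The 4 genes were highest on WT array 1, and Tyrp1 and Dct had their lowest TG value on TG array 1. Leaving out these arrays therefore had to raise those differences.

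**Figure D4:**
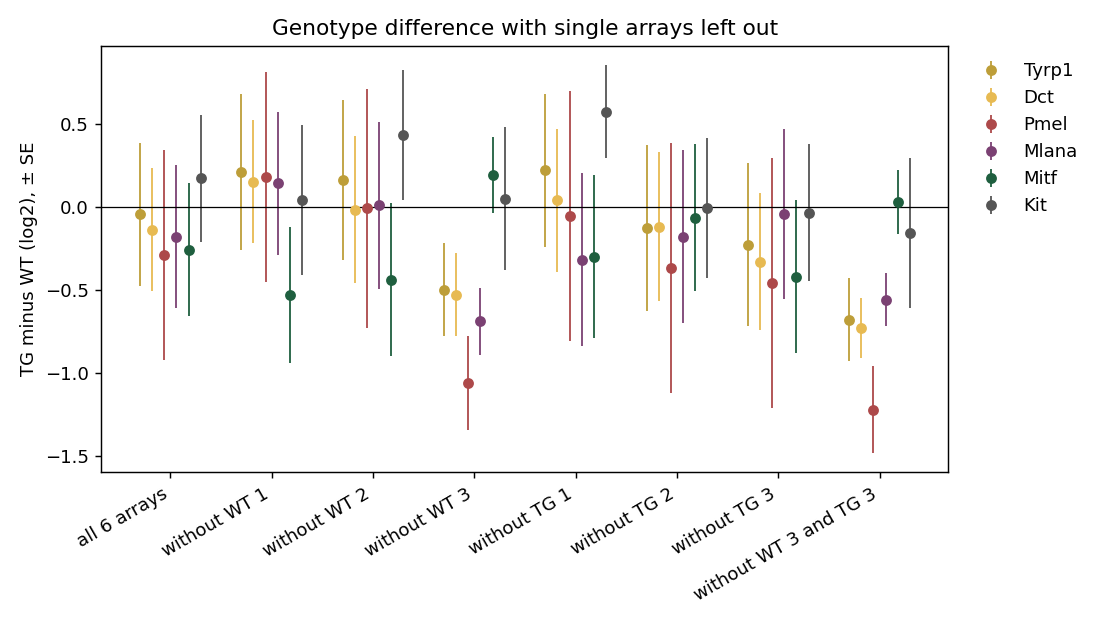
TG minus WT difference ± SE (vertical axis, log2) of Tyrp1, Dct, Pmel, Mlana, Mitf and Kit with all 6 arrays, without each array in turn, and without both arrays numbered 3 (horizontal axis). The 4 pigment genes all lie more than 1 SE below 0 only in the settings that drop WT array 3, where Pmel reaches -1.06 and -1.22.

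Other genes of pigment cells gave no call either. Of 26 further melanosome and pigment synthesis genes measured, 11 differed above 0 and 15 below, with a median of -0.025, and 0 passed the adjusted threshold in either direction. At an unadjusted p under 0.05, 1 of the 26 was lower in TG, where 2.77% of all genes lay under it in either direction. That gene, Ap3d1, encodes a subunit of the adaptor complex AP-3 found in many cells. It read 10.66, 10.65 and 10.70 in WT and 10.28, 10.51 and 10.29 in TG. Ap3d1 and Hps6 were the 2 of 26 whose genotypes did not overlap, both lower in TG, where 7.2% of all genes did not overlap in either direction. Slc45a2, a melanosomal transporter gene, read 6.85, 6.29 and 5.97 in WT and 6.41, 6.09 and 5.98 in TG. Trpm1, a cation channel gene that MITF regulates, read 6.11, 6.08 and 5.54 in WT and 5.50, 5.70 and 5.49 in TG. Gpr143, a melanosomal receptor gene, stood out on WT array 1 alone at 5.86, with the other 5 arrays between 4.65 and 5.0. Gpnmb, a glycoprotein gene related to Pmel and shared with macrophages, was highest on the arrays numbered 2, at 8.93 in WT and 9.11 in TG.

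Of 20 lineage transcription factors and receptors outside the set, 4 differed above 0 and 16 below, with a median of -0.094, where 11561 of all 22180 genes differed below 0. The list's mean deviation from each gene's mean over the 6 arrays lay between 0.04 and 0.19 on the WT arrays and between -0.12 and -0.08 on the TG arrays. These means include Irf4, which spanned 3.60 over the 6 arrays against a median span of 0.774 in the list. That 1 gene weighs heavily in them, so the parting of the genotypes is not one of the list as a whole. Of these genes, 0 passed the adjusted threshold or lay at an unadjusted p under 0.05. Irf4 had the largest difference of them. Irf4 encodes a factor that acts with MITF on Tyr in melanocytes and is also expressed by lymphocytes and antigen-presenting cells. It read 9.0, 8.31 and 5.40 in WT and 6.18, 6.06 and 5.47 in TG, so WT arrays 1 and 2 were high and the other 4 low. The difference was -1.67 ± 0.88 (SE) with all arrays and -2.76 ± 0.30 without WT array 3, with an adjusted p of 0.99996 and 0.639 in limma. Erbb3, a receptor gene shared with keratinocytes, differed by -0.52 ± 0.36. Mc1r, the receptor gene for melanocyte-stimulating hormone, and Pax3, a lineage factor gene, differed by -0.038 ± 0.22 and -0.048 ± 0.27.

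Signals that reach melanocytes from their neighbours were measured in 18 genes, of which 10 differed above 0 and 8 below, with a median of 0.026, and 0 passed the adjusted threshold. Kitl, which encodes the ligand of KIT, read 6.99, 6.55 and 8.61 in WT and 7.56, 6.69 and 8.94 in TG. It was high on both arrays numbered 3, as Cd34 was, and its difference was 0.34 ± 0.71 (SE). Tgfb2, which encodes a signal known to hold melanocyte stem cells at rest, was highest on the same arrays, at 8.97 and 8.57. Edn3, encoding the ligand of EDNRB, differed by -0.026 ± 0.15. Wnt10b, a Wnt ligand gene, read 7.02, 7.17 and 6.98 in WT and 6.28, 6.52 and 6.76 in TG. It was the 1 of 18 genes at an unadjusted p under 0.05, where 2.77% of all genes lay under it. Its difference was -0.53 ± 0.16 (SE, adjusted p = 0.99996 in limma).

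Markers of other cells were read beside these values, as mean deviations from each gene's mean over the 6 arrays. The 12 suprabasal epidermal markers lay between -1.06 and 1.02 on the WT arrays and between -1.45 and 0.98 on the TG arrays. They were low on both arrays numbered 3, while the 5 pigment genes were low on WT array 3 and at 0.08 on TG array 3. On WT arrays 1, 2 and 3 and TG array 1 the suprabasal markers, at 0.88, 1.02, -1.06 and -0.37, had the same sign as the 5 pigment genes. The sign was also the same on TG array 2, with the suprabasal markers at 0.98 and the 5 pigment genes at 0.03. The 14 bulge and sort markers ran the opposite way, from -0.52 to 0.72 in WT and from -0.50 to 0.46 in TG, highest on WT array 3, where Mitf was also highest. All 12 suprabasal markers differed below 0, as did 11561 of all 22180 genes, with a median of -0.414 and 0 past the adjusted threshold. Leaving out single arrays moved that median between -1.325 (without WT array 3) and 0.129 (without TG array 3), so its sign depended on the arrays used. Lor, a cornified envelope gene, differed by -0.82 ± 0.63 (SE). The part of these cells in the melanocyte gene values was not tested.

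Cells that share single genes with melanocytes varied less. The 15 Schwann cell and nerve markers lay between -0.21 and 0.21 in WT and between -0.16 and 0.08 in TG, lowest on both arrays numbered 3. Of these, 7 differed above 0 and 8 below, and Gfra3, a receptor gene of Schwann and nerve cells, read 6.99, 6.72 and 7.03 in WT and 6.68, 6.42 and 6.71 in TG. Gfra3 and Mal were the 2 of 15 whose genotypes did not overlap, both lower in TG. Over all genes 7.2% did not overlap, in either direction. The 12 mast cell markers lay between -0.05 and 0.11 in WT and between -0.11 and 0.10 in TG. Mast cell Cpa3 read 4.43, 4.34 and 4.16 in WT and 4.29, 4.49 and 4.03 in TG. The list mean was lowest on TG array 1, where Kit was also lowest, and both were above 0 on TG array 3. On other arrays they parted. The list was highest on WT array 3, at 0.11, where Kit was at -0.341. It was at -0.05 on WT array 2 and -0.06 on TG array 2, where Kit was at 0.431 and 0.448. The list's mean level lay between 4.52 and 4.73, below the median of all features, so its small shifts may be background. Mcpt4, a mast cell protease gene, was the 1 of 12 mast cell markers without overlap, where 7.2% of all genes did not overlap. Its difference was 0.18 ± 0.13 (SE). The 14 endothelial markers lay between -0.23 and 0.24 in WT and between -0.14 and 0.30 in TG, highest on both arrays numbered 3, where Ednrb was lowest. Of the 13 hair matrix and shaft markers, 7 differed above 0 and 6 below, with a median of 0.004. In all of these lists 0 genes passed the adjusted threshold.

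**Figure D5:**
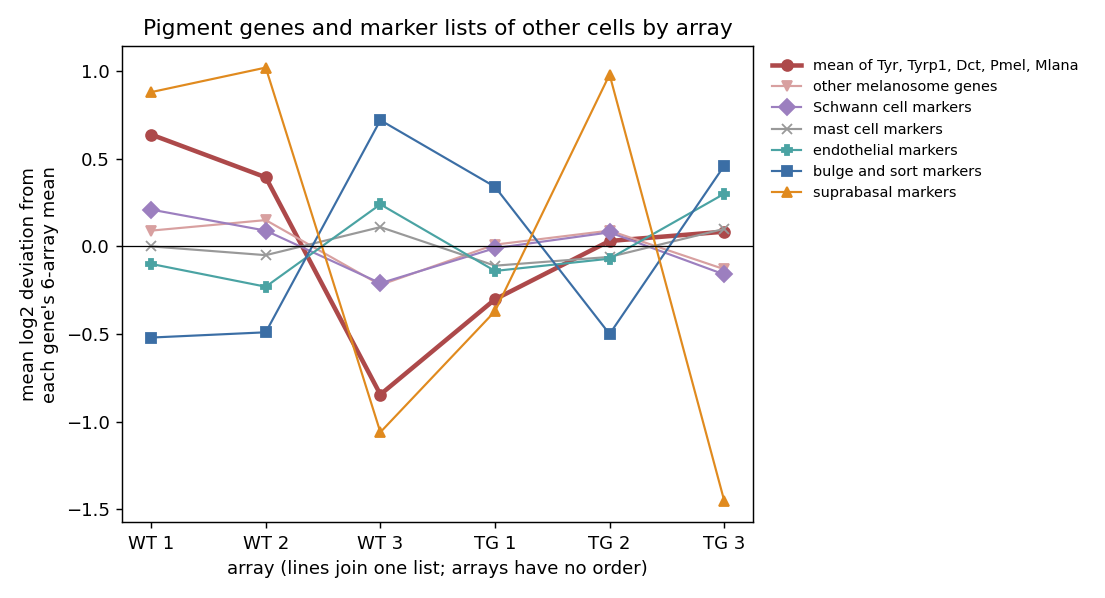
Mean deviation from each gene's own mean over the 6 arrays (vertical axis, log2) for the 5 pigment genes (thick red line), the other melanosome genes and 5 marker lists of other cells on the 6 arrays (horizontal axis). On TG array 3 the suprabasal markers are at -1.45 while the 5 pigment genes are at 0.08; on WT array 3 both are low.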

How the data were processed

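RNA of sorted hair follicle stem cells was measured on 6 Affymetrix arrays (3 WT, 3 TG), grouped by the sample titles. The deposited values are the authors' log2 expression values, 1 per array and feature, running from 2.85 to 14.4 with nearly equal medians. Transcriptome Analysis Console and Affymetrix Expression Console 1.4.1 are the tools in the submitters' processing notes. How values were summarised and scaled, and the log base, is not given in the sources used here, and the base was taken as 2 from the values. If it is not 2, fold changes do not hold. Without background or detection values no gene is called absent, and the number of arrays, not a read depth, limits the precision.

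Of 41345 features, 23521 had exactly 1 symbol in the platform annotation, 1814 several and 16010 none. The brightest feature of each gene by the mean of 6 arrays was used, which left 22180 genes, with no filter on low values and no further scaling. TG was compared with WT in limma 3.58.1 under R 4.3.3 (lmFit, then eBayes, two-sided, with genotype and no other term). Adjusted p-values are Benjamini-Hochberg values over all genes, with 0.05 as the threshold. An exact permutation test of 3 against 3 arrays cannot give a p below 0.1. The p-values measure the spread between these samples, which may be technical.

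Both genotypes have arrays numbered 1, 2 and 3. Between arrays of one number, deviations from the genotype mean correlated at 0.20, 0.67 and 0.74, each above the limit of 0.1, so a fit with the number as a block was run as an alternative. The pairing rests on this check alone, since WT array 1 correlated at 0.50 with TG array 2 and no shared litter or day is stated in the labels.

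The genes, lists and tests were chosen with earlier results of these data known. Besides the 10 genes, the rule for naming genes took a fixed set of pigment, niche and marker genes, up to 4 genes with the smallest p of each of 9 further lists, and the 8 genes nearest in profile to the mean of 5 pigment genes, and the text gives values for those its results turn on. Lists are described by counts and medians, with no set test. Some list entries were not analysed here. Alternatives were quantile normalization, the mean of a gene's features, genes above the median level, all features, the replicate block, no moderation of the variance, and leaving out 1 array or both arrays of a number.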

Additional observations from a re-analysis of the deposited data

How the results depend on the processing

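In every alternative that could be run, 0 of the 10 melanocyte lineage genes passed the adjusted threshold in limma, including the fit blocked on replicate number (lowest adjusted p = 0.692, for Oca2), which changed no call. Under the block 1874 genes had an unadjusted p under 0.05, against 615 without it. The number of genes past the threshold, 1 (Pla2g2a), was also 1 under the block. It was 0 with no moderation of the variance, 0 without both arrays numbered 2 and 0 without both numbered 3, and between 0 and 1 without single arrays, with 0 when TG array 1 was left out. The mean difference of the 10 genes was -0.071, between -0.297 and 0.065 without single arrays, 0.147 without both arrays numbered 1 and -0.361 without both numbered 3, beside an SD between arrays of 0.298. Tyr, Sox10, Ednrb and Oca2 were not tested among the genes above the median level.

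Of 146 alternative values for the 10 genes, 30 had the opposite sign. Each gene had 1 feature, so the mean of features, all features and genes above the median level returned the same difference as the main fit. So did the block and no moderation, and none of these alternatives could change a sign. Oca2, whose values lay below the median of all features on every array, kept its sign in all 14 alternatives, from -0.28 to -0.091. The other 9 genes did not. Without single arrays the differences ran from -0.53 to 0.19 for Mitf, -0.10 to 0.13 for Tyr, -0.50 to 0.22 for Tyrp1, -0.53 to 0.15 for Dct, -1.06 to 0.18 for Pmel, -0.69 to 0.14 for Mlana, -0.036 to 0.57 for Kit, -0.027 to 0.33 for Sox10 and -0.074 to 0.17 for Ednrb. Without both arrays numbered 1, the signs turned for Tyrp1 (0.48), Dct (0.32), Pmel (0.42) and Mlana (0.0095). Without both numbered 2 they turned for Tyr (-0.019), Tyrp1 (0.072), Dct (0.00044), Mlana (0.0057) and Ednrb (-0.012). Without both numbered 3 they turned for Mitf (0.028), Tyr (-0.071), Kit (-0.16) and Sox10 (-0.08).

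Among the other genes, the range without single arrays crossed 0 for Slc45a2 (-0.41 to 0.034), Gpr143 (-0.46 to 0.15), Gpnmb (-0.64 to 0.22), Mc1r (-0.25 to 0.13), Pax3 (-0.24 to 0.24), Kitl (-0.26 to 0.96), Edn3 (-0.15 to 0.064), Tgfb2 (-0.099 to 1.18), Cpa3 (-0.16 to 0.078), Cd34 (-0.31 to 1.37), Itga6 (-0.18 to 0.062) and Krt15 (-0.0034 to 0.11). Without both arrays numbered 1, Gpr143 was at 0.11, Gpnmb at 0.17, Mc1r at 0.21, Pax3 at 0.14, Edn3 at 0.087, Tgfb2 at -0.066, Cpa3 at 0.0086, Cd34 at -0.45 and Krt15 at -0.053, and without both numbered 3 Cpa3 was at 0.0038. Each of these comes from fewer arrays, and the cause was not tested. The number of arrays and the unknown signal over background limit what can be resolved.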
